A study of Homo sapiens with 8 samples.

Results

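The thioredoxin and peroxiredoxin system was followed through H3K27 acetylation (H3K27ac), a histone mark of active promoters and enhancers, in the human lung adenocarcinoma line A549. The 8 members were taken by name for their place in the system: TXN, TXNRD1, TXNRD2, SRXN1, PRDX1, PRDX2, PRDX6 and TXNIP. Peaks of all libraries were joined into 49186 regions wherever they overlapped by at least 1 bp, and 34 of these overlapped a member's gene body or the 20 kb on either side of it. Each region is called here by its gene and a number that runs along the chromosome. Of the 34 regions, 8 held a coding transcript start of a member (start regions), 6 held only the start of another coding gene, and 20 held no coding start.

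Thioredoxin is a small protein that reduces disulfide bonds in other proteins, and thioredoxin reductases recharge it with electrons from NADPH. Peroxiredoxins remove peroxides, most of them drawing on thioredoxin, and sulfiredoxin repairs typical 2-Cys peroxiredoxins that have been overoxidized. NRF2 is a transcription factor that binds antioxidant response elements, and A549 cells are known for persistently active NRF2 because its repressor KEAP1 is defective.

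Control siRNA or siRNA against NRF2 was introduced into A549 cells and the cells were harvested at 48 h, with 3 libraries in each group. NRF2 siRNA 28 was used in replicate 1 and NRF2 siRNA 30 in replicates 2 and 3. All libraries came from 1 cell line. The replicates were independent experiments according to the study's methods. The peak lists held 27941, 34747 and 41571 peaks with control siRNA and 23885, 34986 and 39108 peaks with NRF2 siRNA, in replicate order. The lists carry no read counts per peak, so no interval from counts is given. The study states the read total of each library, and these totals were not used here. Both libraries of replicate 1 were sequenced less deeply than the others. The study's methods do not tie an input library to a list. Peak names carried a flow cell identifier in replicates 2 and 3 but not in replicate 1, so the siRNA and this difference between runs cannot be told apart. A peak list does not show how well an siRNA acted on its mRNA, so the knockdown could not be checked. Peaks lay over the starts of 4 epithelial markers (KRT8, KRT18, CDH1 and EPCAM) in 6 of 6 libraries, and over that of KRT19 and those of 5 leukocyte and endothelial markers in 0.

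The antioxidant response element has the core TGACNNNGC, or TGAGNNNGC in the wider form that was searched after the data had been seen, on either strand. Within 500 bp of the canonical start, TGACNNNGC occurred in 34.3% and TGAGNNNGC in 49.2% of 19515 coding genes, and 66.2% held at least 1 of them, so a match describes letters and is no evidence of binding. All 8 members held 1 or the other in that window. The matches shown are some of those upstream of the starts on which the results turn. A further 1 lies in an intronic TXNRD1 region that had peaks in the control libraries but not the NRF2 siRNA libraries. The TXN match shown lies outside the 500 bp window, in which TXN held 0 TGACNNNGC and 1 TGAGNNNGC. Positions are GRCh37, and only the match that a line names is in capitals. Each sequence is written 5′ to 3′ on the strand of that match, with its distance taken from the centre of the match to the canonical start. The sequence at 268 bp upstream of SRXN1 also holds, in small letters, a TGAGNNNGC match on the other strand, 280 bp upstream.
TXN, 577 bp upstream, chr9:113019345-113019383, plus strand: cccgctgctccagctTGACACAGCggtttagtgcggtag
TXNRD1, 95 bp upstream, chr12:104609443-104609481, plus strand: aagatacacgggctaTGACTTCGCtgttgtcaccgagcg
TXNRD1, 4 bp upstream, chr12:104609539-104609567, minus strand: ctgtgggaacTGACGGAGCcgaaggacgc
TXNRD1 region 9, intron, chr12:104741334-104741372, plus strand: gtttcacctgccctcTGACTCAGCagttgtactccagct
SRXN1, 268 bp upstream, chr20:634093-634131, minus strand: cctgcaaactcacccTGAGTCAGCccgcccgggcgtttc
SRXN1, 390 bp upstream, chr20:634215-634253, plus strand: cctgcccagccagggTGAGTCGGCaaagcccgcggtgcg
PRDX1, 137 bp upstream, chr1:45987674-45987712, plus strand: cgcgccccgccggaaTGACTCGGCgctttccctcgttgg
The matches in TXNRD1 region 9 and 268 bp upstream of SRXN1 also hold the letters of an AP-1 site (TGACTCA or TGAGTCA). Counting both forms, the 8 start regions held 1.02 matches per kb, against 0.963 per kb over all 9932 tested regions with a coding start. The density of matches in the start regions was therefore close to that of start regions in general.

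The region value was the highest fold enrichment of a library's peaks in the region, given as its percentile among that library's own peaks. For tests, the 32673 regions with a peak in at least 3 libraries were ranked in each library, and ranks were turned into normal scores, so that a change of 1 is 1 standard deviation of a normal distribution. Regions without a peak in a library shared its tied lowest rank. The score of that tie depended on how many regions the library left without a peak, so it differed between libraries. Of the 34 regions near the members, 21 met this minimum, including all 8 start regions.

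The clearest difference was at the starts of TXN and SRXN1. Of the 21 tested regions, 2 were lower with NRF2 siRNA (limma, adjusted p below 0.05), against 3.39% of all tested regions, and 0 were higher, against 2.01%. At an unadjusted p below 0.05 the counts were 4 lower, against 10.7% of all tested regions, and 2 higher, against 11.9%. In a fit blocked by replicate number, 4 were lower, against 6.62% of all tested regions, and 0 were higher, against 5.72%. The count of lower regions was 1 without replicate 1 of control siRNA, replicate 2 of NRF2 siRNA or replicate 3 of NRF2 siRNA, and 0 without replicate 2 or replicate 3 of control siRNA. Without either of those 2 control libraries, 0 of all tested regions passed the threshold, although 4888 and 4576 had an unadjusted p below 0.05.

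The scores of all 3 NRF2 siRNA libraries lay below those of all 3 control libraries in 6 of the 21 regions, against 13.6% of all tested regions, and above them in 2, against 14.6%. The 2 above were TXN region 1 and PRDX1 region 2, also the 2 higher at an unadjusted p below 0.05 (limma). In both, replicate 1 of NRF2 siRNA had no peak, and its tied score lay above that of a control peak in replicate 3. They therefore do not show separated peaks. TXNRD1 regions 1 and 9, with peaks in the 3 control libraries alone, counted as overlapping. The median change was −0.35 over the 8 start regions, 0.02 over the 5 tested regions with another gene's start and 0.07 over the 8 tested regions with no coding start. Over all tested regions the median change was −0.06 with a coding start and 0.07 without one. Without a coding start the median of pair 1 was 0.25, the value given where neither library of replicate 1 had a peak. The 0.07 therefore includes tied scores of missing peaks. With a peak required in all 6 libraries, the median over all regions was −0.0057. At the start regions 7 of 8 changes were negative, against 57.8% of the 9932 regions with a coding start, and the medians of the 3 replicate pairs were −0.41, −0.38 and −0.44. Among the 8 tested regions with no coding start, TXNRD1 regions 1 and 9 entered only through peaks in the control libraries, which fixed their direction. Where regions had to have a peak in all 6 libraries, the medians were −0.54 at the start regions and −0.0142 without a coding start. These medians describe genes chosen with earlier results known and were not tested.

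**Figure D1:**
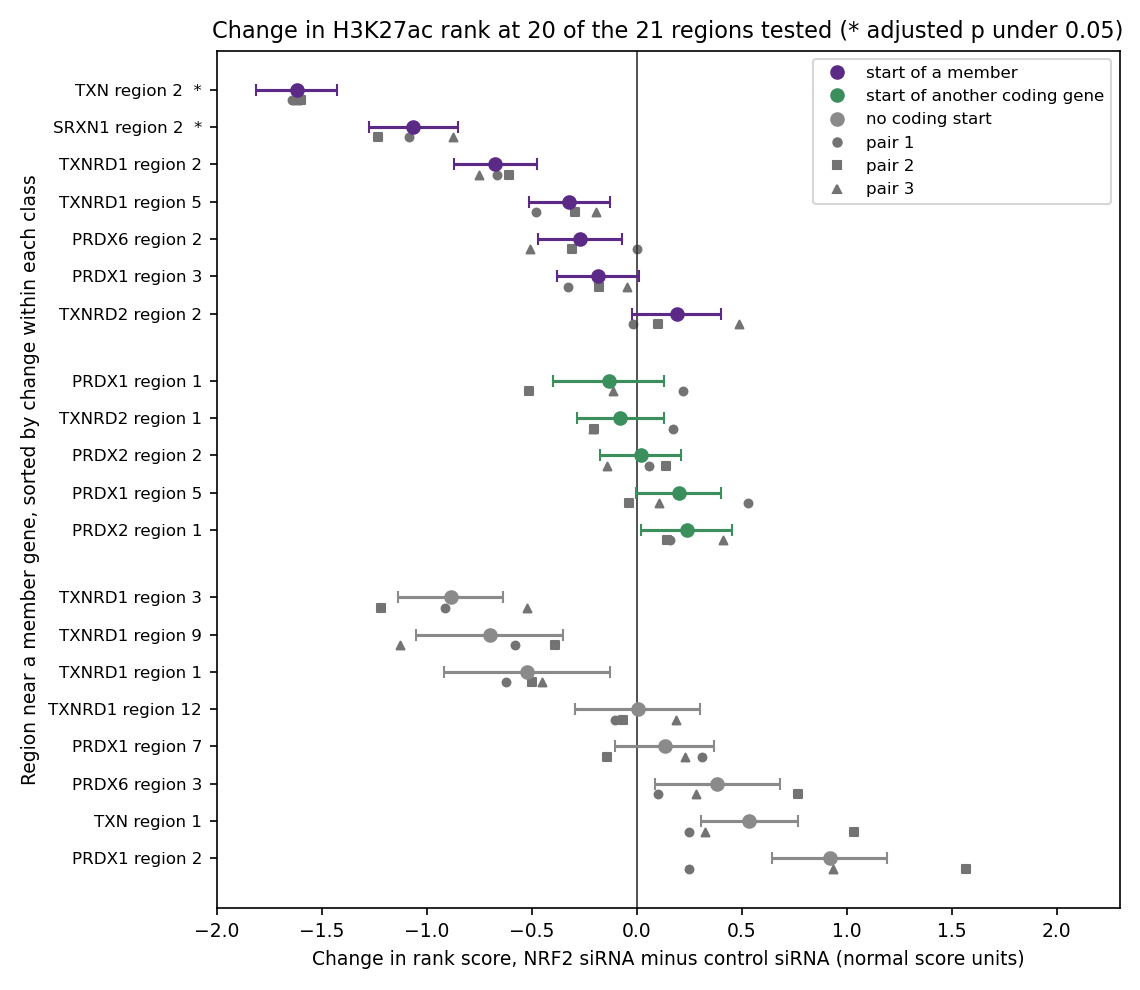
Change in rank score (NRF2 siRNA minus control siRNA, normal score units) at 20 of the 21 tested regions, as the fitted mean with its standard error, and the change in each of the 3 replicate pairs as small grey symbols. The TXN and SRXN1 start regions lie farthest to the left at −1.62 and −1.06, while regions without a start scatter on both sides of 0, TXNRD1 regions 1 and 9 having entered through control peaks alone.

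TXN encodes cytosolic thioredoxin. Its start region (TXN region 2, chr9:113016634-113021981) covers the start and first exon on the minus strand and the sequence upstream. The percentile was 98.9, 99.4 and 99.5 with control siRNA and 64.6, 82.5 and 82.9 with NRF2 siRNA. Every control library thus placed TXN among its highest peaks, and every NRF2 siRNA library lay clearly below all of them. The fold enrichment over background was 14.1, 16.2 and 19.99 with control siRNA, and 4.40, 7.22 and 7.43 with NRF2 siRNA. The score fell by 1.62 (SE 0.192, limma, adjusted p = 0.00677), and the 3 pairs gave −1.64, −1.60 and −1.62. The pairs were thus nearly equal in score across both siRNAs, while the percentile changed by −34.4, −16.9 and −16.5. Only 12 of the 9932 tested regions with a coding start had a more negative change. The adjusted p was 0.0767 without replicate 2 and 0.0657 without replicate 3 of control siRNA, with changes of −1.61 and −1.67.

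Next to it, TXN region 1 (chr9:113011652-113015855) overlaps exonic sequence within TXN and holds no coding start. It had a peak in 1 control library at percentile 15.2 and in 2 NRF2 siRNA libraries at 22.9 and 22.3. The score change was 0.54 (SE 0.229, adjusted p = 0.205), opposite in sign to that at the TXN start. Neither library of replicate 1 had a peak there, yet that pair entered the change as 0.25, from the tied scores given to missing peaks. TXN region 1 lies within 1000 bp of the start region, and where peaks that close were joined both became 1 region with a change of −1.62.

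TXNRD1 encodes the cytosolic thioredoxin reductase and has the most regions of the members, 12 of the 34, along the longest gene body (135 kb). Its transcripts start at 2 places about 70.2 kb apart, each within a region called in every library. The upstream start region (TXNRD1 region 2, chr12:104607350-104618734) stood at percentile 99.5, 99.2 and 99.5 with control siRNA. With NRF2 siRNA it stood at 96.4, 96.2 and 96.5. The groups did not overlap, and the libraries of each group varied little. The score change was −0.67 (SE 0.198, adjusted p = 0.0833), and the pairs gave −0.66, −0.61 and −0.75. It passed the threshold with the replicate block (adjusted p = 0.0482) and in 3 of 15 other settings in all. With 1 library left out at a time it passed in 0 of 6 fits (limma, adjusted p from 0.0663 to 0.263).

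The peak over the upstream start also became short. Peaks covered 11012, 10387 and 10789 bp of this region with control siRNA, as 1 peak in each library, and 4265, 3701 and 5647 bp with NRF2 siRNA. In replicates 1 and 2 of NRF2 siRNA the region was broken into 2 peaks, a short one over the start and a stronger one from 2.65 or 2.60 kb downstream. The peak that itself lay over the start had percentile 78.8, 85.3 and 96.5 with NRF2 siRNA, so the region's best peak ranks higher than the peak over the start in 2 of those libraries. Relative to the start, the short peaks began at −0.043 kb in replicate 1 and −0.159 kb in replicate 2, so that the match 95 bp upstream lay inside the second but not the first.

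The internal start region (TXNRD1 region 5, chr12:104668628-104712271) covers a cluster of TXNRD1 starts 70.2 to 73.1 kb downstream of the first and also holds the start of EID3, a gene inside TXNRD1. The percentile was 95.0, 93.7 and 94.5 with control siRNA and 84.6, 89.2 and 91.6 with NRF2 siRNA. All 3 NRF2 siRNA libraries lay below the controls, with a score change of −0.32 (SE 0.194, adjusted p = 0.373). In replicate 2 of control siRNA, 1 peak ran from 59.1 to 95.9 kb, while in replicate 2 of NRF2 siRNA a peak from 60.0 to 66.4 kb was separate from another from 68.8 to 102.7 kb. The peak that lay over the TXNRD1 starts had percentile 95.0, 93.7 and 94.5 with control siRNA and 84.6, 68.4 and 77.7 with NRF2 siRNA. Its mean was 94.4 ± 0.687 (SD, n = 3) against 76.9 ± 8.13 (SD, n = 3), with an exact permutation p of 0.1, two-sided, the smallest that 3 against 3 libraries allow. With the length-weighted mean fold of all its peaks in place of the best, the score change was −0.86 (adjusted p = 0.044). This was the only 1 of 15 other settings in which the region passed the threshold, with adjusted p up to 0.616 (limma).

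**Figure D2:**
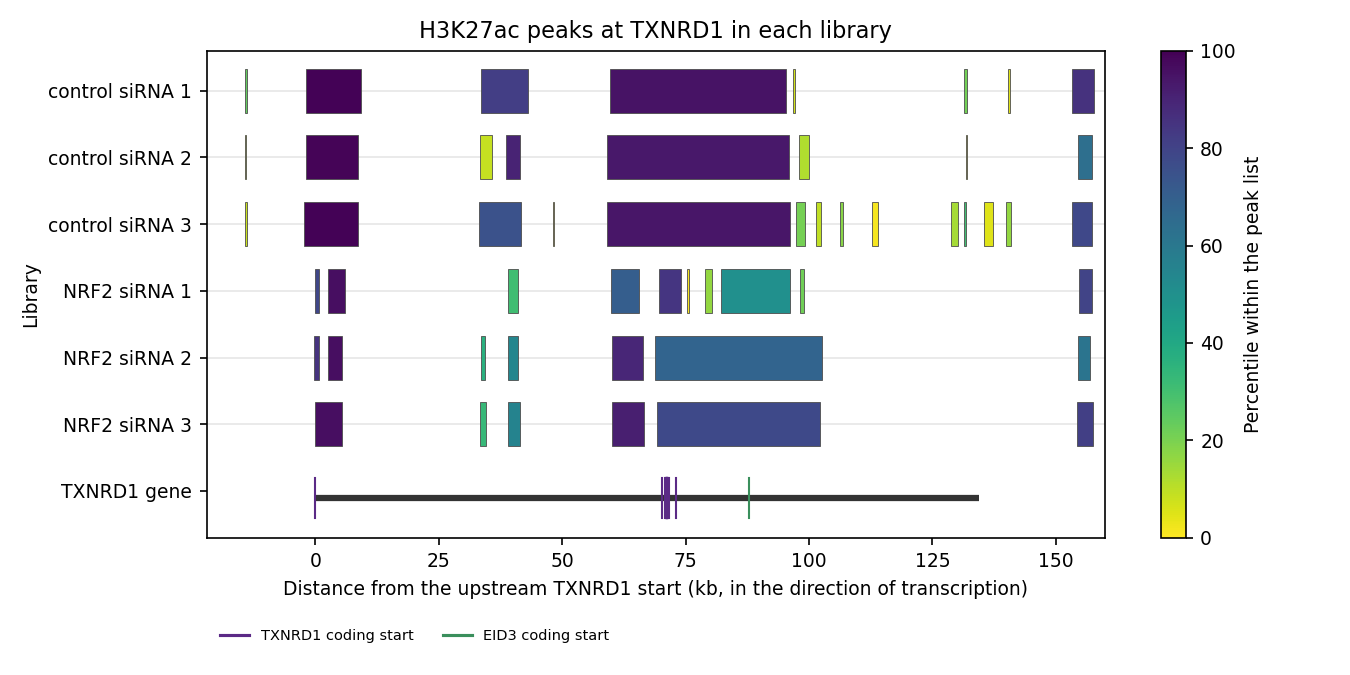
Peaks around TXNRD1 in each of the 6 libraries, by distance from the upstream start in kb, coloured by percentile within the library's list. The control libraries hold 1 wide peak at the upstream start and 1 at the internal starts, and the NRF2 siRNA libraries hold shorter or broken peaks there and no peak from 102.7 kb to 154 kb.

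Between the 2 starts, TXNRD1 region 3 (chr12:104642722-104652584) overlaps an exon of TXNRD1 but no coding start. The percentile was 81.8, 90.6 and 74.8 with control siRNA and 30.5, 54.2 and 55.5 with NRF2 siRNA. The groups did not overlap, and this was the most negative change among the members' regions without a start. The score change was −0.88 (SE 0.250, adjusted p = 0.0747), and the adjusted p was 0.0324 with the replicate block. It passed the threshold in 5 of 15 other settings. With 1 library left out at a time it passed in 0 of 6 fits (limma, adjusted p from 0.0907 to 0.239).

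Many of the weak peaks around TXNRD1 were found in control libraries only. Of its 12 regions, 8 had peaks in control libraries only, against 18.9% of all regions, and 0 in NRF2 siRNA libraries only, against 13.1%, though 5 of the 8 were called in replicate 3 of control siRNA alone, the longest list. TXNRD1 region 1 (chr12:104595226-104595824), which is intergenic, stood at percentile 23.8, 6.86 and 8.18 in the control libraries and had no peak with NRF2 siRNA. TXNRD1 region 9 (chr12:104740987-104741668), in an intron, stood at 21.2, 3.36 and 30.5 in the control libraries and also had none. These 2 were the only regions near the members with peaks in all 3 control libraries and in 0 NRF2 siRNA libraries, a pattern seen in 2.27% of all regions. The reverse pattern occurred in 0 of the 34, against 0.830% of all regions. All of these peaks were in the lower part of their lists. Both regions met the minimum of 3 libraries through the control group alone, so no test of them is given. With lists cut to the same length, 0 such regions were left.

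TXNRD2 encodes the mitochondrial thioredoxin reductase. The internal TXNRD2 start (TXNRD2 region 2, chr22:19862266-19870659) was the only start region with a positive change. It is centred 62.9 kb downstream of the canonical TXNRD2 start and holds 2 of the 10 coding starts of the gene. Its percentile was 92.4, 90.9 and 87.7 with control siRNA and 90.6, 92.6 and 94.4 with NRF2 siRNA. The groups overlapped, and the change was 0.19 (SE 0.212, adjusted p = 0.654). The reductase genes thus had start regions with changes of either sign, none of them past the threshold in the fit as reported.

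PRDX1, an abundant cytosolic peroxiredoxin that draws on thioredoxin, kept a high rank. Its start region (PRDX1 region 3, chr1:45985943-45992683) stood at percentile 97.0, 97.0 and 98.1 with control siRNA and 92.6, 95.6 and 97.7 with NRF2 siRNA. The groups overlapped, and the score change was −0.19 (SE 0.196, adjusted p = 0.635). The length under the peak did not overlap between the groups, being 5638, 5159 and 6741 bp with control siRNA, and 2250, 2895 and 2787 bp with NRF2 siRNA. The means were 5846 ± 811 bp (SD, n = 3) and 2644 ± 345 bp (SD, n = 3), with an exact permutation p of 0.1, two-sided. The PRDX1 peak was therefore shorter in every NRF2 siRNA library, while its ranks overlapped.

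Within PRDX1, region 2 (chr1:45978815-45980431), which overlaps exonic sequence of PRDX1 and of its neighbour MMACHC, had the most positive change of the members' regions. It had a peak in replicate 3 of control siRNA at percentile 3.87 and in replicates 2 and 3 of NRF2 siRNA at 45.1 and 30.2. The change was 0.92 (SE 0.274, adjusted p = 0.0868). Neither library of replicate 1 had a peak there, yet that pair entered the change as 0.25. This value came from the tied scores given to missing peaks, so part of the change is no measured rise.

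PRDX6, the 1-Cys peroxiredoxin that draws on glutathione rather than thioredoxin, had the lowest start region of those named, in both groups. The region (PRDX6 region 2, chr1:173445274-173449426) also holds the start of the antisense RNA PRDX6-AS1. Its percentile was 46.3, 65.9 and 74.0 with control siRNA and 34.1, 54.3 and 55.0 with NRF2 siRNA. The groups overlapped, and the score change was −0.27 (SE 0.199, adjusted p = 0.473). Region 3 (chr1:173475581-173477556), centred 30.1 kb from the start and in an exon of SLC9C2, changed by 0.38 (SE 0.297, adjusted p = 0.497).

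PRDX2, the peroxiredoxin best known from red blood cells, had no peak over its start in any library. The nearest region was 4762 bp away at the start of RNASEH2A, with peaks in 2 control libraries only. The other regions near PRDX2 hold the starts of JUNB and HOOK2, had peaks in 6 of 6 libraries and changed by 0.02 (adjusted p = 0.969) and 0.24 (adjusted p = 0.570). PRDX2 itself therefore contributed no value to the comparison.

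SRXN1 encodes sulfiredoxin. Its start region (SRXN1 region 2, chr20:630668-637752) covers the start and the sequence upstream, including the matches 268 and 390 bp upstream. The percentile was 94.1, 92.3 and 92.1 with control siRNA and 56.8, 57.9 and 70.7 with NRF2 siRNA. The lowest control library stood well above the highest NRF2 siRNA library. The fold enrichment was 9.53, 9.26 and 11.2 with control siRNA, and 4.10, 4.59 and 5.63 with NRF2 siRNA. The score fell by 1.06 (SE 0.213, limma, adjusted p = 0.0267), and the pairs gave −1.08, −1.23 and −0.87. Among the tested regions with a coding start, 87 had a more negative change.

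The direction at SRXN1 was the same whichever library was left out, with changes from −1.21 to −0.98, but the call was not. Without replicates 1, 2 and 3 of control siRNA in turn the adjusted p was 0.0831, 0.119 and 0.101. It was 0.132 without replicate 2 and 0.0767 without replicate 3 of NRF2 siRNA. SRXN1 had 2 further regions, with no coding start and with peaks in 1 and 2 control libraries and in 0 NRF2 siRNA libraries.

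TXNIP, which binds reduced thioredoxin and inhibits it, had 0 regions in its window. The nearest region was 31517 bp from its start, at the starts of ANKRD34A and POLR3GL, with peaks in 6 of 6 libraries.

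**Figure D3:**
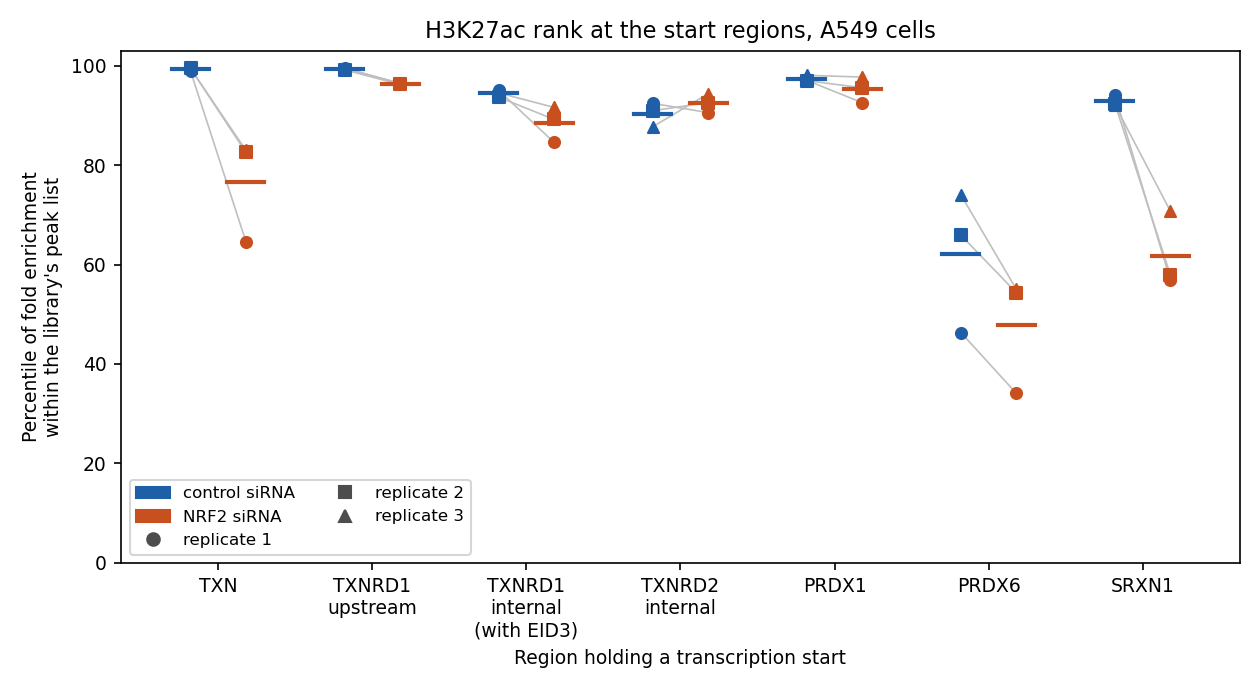
Percentile of the best peak at 7 of the 8 start regions, with the 3 control siRNA libraries in blue and the 3 NRF2 siRNA libraries in orange, grey lines joining libraries of the same replicate number and horizontal bars at the group means. TXN and SRXN1 show the widest separation, TXNRD1 upstream a narrow one near the top of the scale, and TXNRD2 internal none.

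By mean percentile with control siRNA, 7 of the start regions ran from TXNRD1 upstream (99.4 ± 0.190) and TXN (99.3 ± 0.296) through PRDX1, TXNRD1 internal, SRXN1 and TXNRD2 internal to PRDX6 (62.1 ± 14.2; SD, n = 3 each). Neighbours in this order overlapped except between TXN and PRDX1, PRDX1 and TXNRD1 internal, and TXNRD2 internal and PRDX6. With NRF2 siRNA the order was TXNRD1 upstream, PRDX1, TXNRD2 internal, TXNRD1 internal, TXN, SRXN1 and PRDX6. In this order of best peaks TXNRD1 internal did not overlap with TXN, nor SRXN1 with PRDX6. TXN thus took order 2 with control siRNA and order 5 with NRF2 siRNA. For the peak over the start, the NRF2 siRNA means were 86.9 at TXNRD1 upstream and 95.3 at PRDX1. They were 76.9 at TXNRD1 internal and 76.7 at TXN. By that measure TXNRD1 upstream stood below PRDX1, and TXNRD1 internal overlapped with TXN.

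The length covered by peaks was measured in the same regions after the data had been seen. In 6 of the 17 regions with a peak in every library, every NRF2 siRNA library covered fewer bases than every control library, against 7.65% of all such regions, and in 0 did every one cover more, against 2.90%. Among them were the starts of TXN, SRXN1, PRDX1 and TXNRD1 upstream, and TXNRD1 region 3. The ratio of mean covered length, NRF2 siRNA to control siRNA, was 0.365 at SRXN1, 0.423 at TXNRD1 upstream, 0.452 at PRDX1 and 0.591 at TXN. Over the 7034 start regions with a peak in every library the median ratio was 0.903, and 0.398% of them had a lower ratio than SRXN1, 0.782% than TXNRD1 upstream, 1.09% than PRDX1 and 4.11% than TXN.

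Covered length can move with the length of a list and with depth, which differed between libraries. In replicate 2 the peak lists of both groups covered nearly the same total, 85.0 and 84.8 Mb. In that pair the ratio was 0.458 at SRXN1, 0.356 at TXNRD1 upstream, 0.561 at PRDX1 and 0.591 at TXN, against a median of 0.978 over start regions. The TXNRD1 internal start, with a ratio of 1.04 in this pair, kept its covered length.

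**Figure D4:**
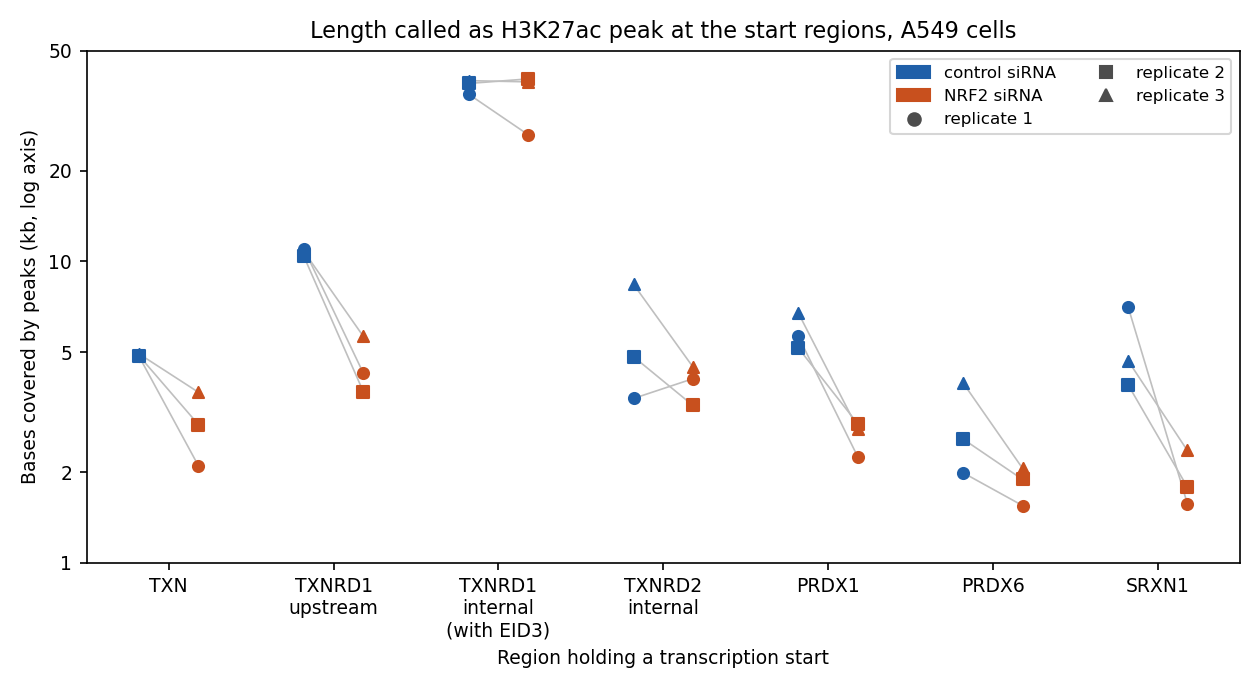
Bases covered by peaks (kb, log axis) at 7 of the 8 start regions in each library, with lines joining libraries of the same replicate number. NRF2 siRNA is lower in all 3 pairs at TXN, TXNRD1 upstream, PRDX1, PRDX6 and SRXN1, while TXNRD1 internal changes little in replicates 2 and 3.

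Across the 34 regions, 17 had a peak in all 6 libraries, against 34.2% of all regions. All 8 start regions were among them, as were 5 of the 6 regions with another coding start, against 65.4% of all regions with a coding start. Of the 20 regions with none, 4 were among them, against 25.5% of all such regions. Peaks in control libraries only were found in 13 of the 34, against 18.9% of all regions, and peaks in NRF2 siRNA libraries only in 1, against 13.1%. Of the 9 regions called in a single library, 7 were called in replicate 3 of control siRNA, whose list was the longest. That library had peaks in 32 of the 34 regions, while the other libraries had peaks in 17 to 22, and its part in the count of control-only regions was not tested.

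**Figure D5:**
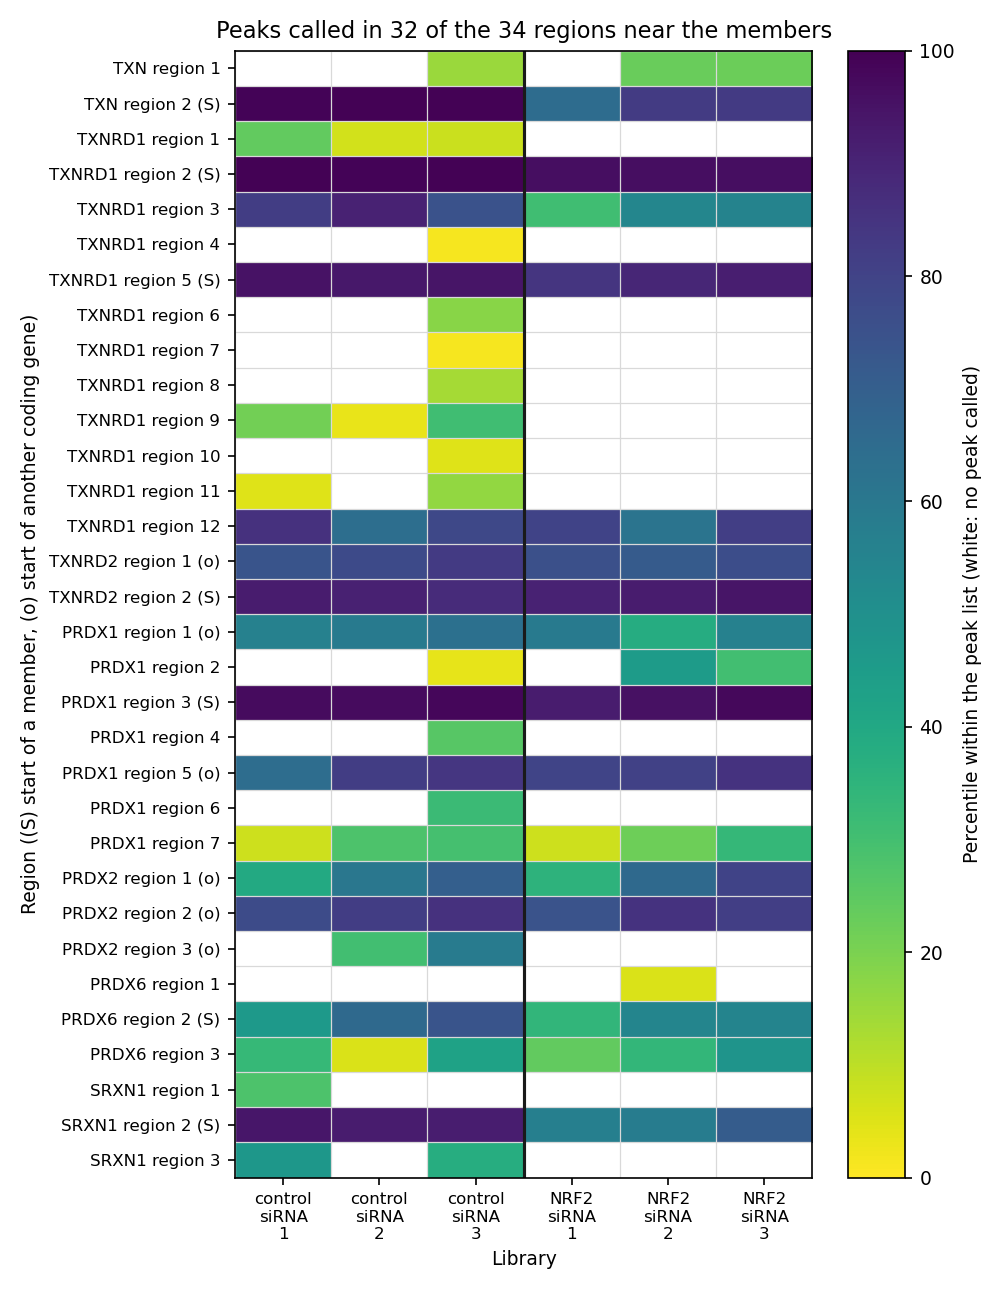
Peaks in 32 of the 34 regions (rows) in each library (columns), shaded by percentile within the library's list, with white where no peak was called. The 7 start regions shown are filled in all 6 columns, and 5 of the 12 TXNRD1 regions are filled only in replicate 3 of control siRNA.

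The tested regions near the members that hold only another gene's start had changes from −0.13 to 0.24. The start of AKR1A1, an aldo-keto reductase gene beside PRDX1, changed by 0.20 (adjusted p = 0.617), and the start shared by MMACHC and CCDC163 changed by −0.13 (adjusted p = 0.818). The start shared by GNB1L and RTL10 near TXNRD2 changed by −0.08 (adjusted p = 0.870). In all of these the groups overlapped.

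Among 22 other genes of thiol redox control, listed for their function, 21 had a tested region at a start. In limma 0 passed the threshold as lower, against 1.05% of all tested regions with a coding start, and 0 as higher, against 0.282%. An unadjusted p below 0.05 was found for 1, PRDX3, against 10.3%. The change was negative in 17 and positive in 4, with a median of −0.18, against −0.06 over all tested regions with a coding start. In 4 of them (PRDX3, GLRX5, TXNDC5 and TXNDC17) the scores of the NRF2 siRNA libraries lay below all controls, against 13.9% of tested regions with a coding start, and in 0 above, against 6.64%. The count of 4 among 21 is near that background. PRDX3, the mitochondrial peroxiredoxin, changed by −0.54 (adjusted p = 0.156). The most negative change was at MSRB1, a methionine sulfoxide reductase, with −0.56 (adjusted p = 0.255), and the most positive at GLRX3, a glutaredoxin, with 0.17 (adjusted p = 0.683). All 21 values lay closer to 0 than those at TXN, SRXN1 and the upstream TXNRD1 start. TXNRD3, a further thioredoxin reductase, had no peak over its start.

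The start regions whose scores over the 6 libraries were most like those of TXNRD1 upstream were those of NDUFAF4 (Pearson r = 0.996), INTS2 (r = 0.996), DCTN5 and PALB2 (r = 0.993), FTCDNL1 (r = 0.992) and MGST2 (r = 0.992). With 6 points shared by all regions such values are common: 368 of 9931 candidates (3.71%) had r above 0.9. None of the other members' start regions was among these 5.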

How the data were processed

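H3K27ac ChIP-seq peaks were deposited for 3 control siRNA and 3 NRF2 siRNA libraries, and 2 input samples were not analysed here. Per the labels and the study's methods, the authors aligned reads to hg19 with Bowtie2 2.2.6, removed reads of low mapping quality, called broad peaks per library with MACS2 2.1.0.20151222 and took out blacklisted peaks. The deposited lists hold a peak score, a fold enrichment (a ratio over background), and the −log10 of a p-value and of a q-value. The score and the p-value were not used. Genes came from GENCODE 44 lifted to GRCh37, and response elements from the GRCh37 sequence. Scores were normal scores of within-library ranks, fitted with limma 3.58.1 in R 4.3.3 with Benjamini-Hochberg adjustment over all 32673 regions, and other steps used Python 3.11.15, scipy 1.17.1 and pysam 0.24.0. The fit was run on simulated scores with independent noise. These held no tied scores of missing peaks and no deviations shared by replicate, so the fit was not checked for either. Named regions were all start regions, the largest change without a start for each member, regions past the threshold and one-sided regions. Same-numbered libraries deviated together (r = 0.398, 0.199 and 0.363 for replicates 1 to 3), so the replicate number was used as a block in an alternative fit. Members and lists were chosen with earlier results of these data known. The covered length, the peak over the start, the TGAGNNNGC form and the fit with both the block and equal lists were added after the data had been seen. Of the regions near the members, 1 start region and 1 region without a start enter the counts but are not reported here.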

Additional observations from a re-analysis of the deposited data

Results flagged for a closer look

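In 4 regions near the members the score of the pair with NRF2 siRNA 28 moved one way and both siRNA 30 pairs the other. This difference was not tested and cannot be told apart from the run, as only replicate 1 received siRNA 28. Over all tested regions the median score change was 0.17 in pair 1, against 0.02 and 0.0008 in pairs 2 and 3. The change with siRNA 28 minus the mean change with siRNA 30 was 0.533 at the start shared by MMACHC and CCDC163 (PRDX1 region 1), where the pairs gave 0.22, −0.51 and −0.11. It was 0.378 at the start shared by GNB1L and RTL10 (TXNRD2 region 1), with pairs of 0.17, −0.20 and −0.21. At the PRDX6 start it was 0.411, with pairs of 0.004, −0.31 and −0.51, so that the first pair stood almost at 0 in score. The percentile there fell in every pair, with changes of −12.2, −11.6 and −19.0. At the internal TXNRD2 start it was −0.312, with pairs of −0.02, 0.10 and 0.49.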

How the results depend on the processing

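The peak lists hold no read counts per peak, libraries differed in depth, and the part of depth in list length was not tested, while a percentile compares a peak only with others of its list. Over 14 named regions, 181 values under other settings gave 164 on the same side of the threshold as reported, 7 weaker, 9 stronger and 1 reversed (TXN region 1, −1.62 when peaks within 1000 bp were merged). Settings under which a region was not tested gave no value. TXN region 1, PRDX1 region 2 and TXNRD1 regions 1 and 9 thus had 8 values each, against 15 at the TXN start. TXNRD1 regions 1 and 9 are among the 14 although they entered through control peaks alone. With the replicate block, 4 member regions were lower in place of 2, and the same count came with trend and robust settings (4) and with the block and equal lists (4). The block added calls for the upstream TXNRD1 start and TXNRD1 region 3 and took none away. The median change over member starts was −0.42 with equal lists, alone or with the block, −0.52 at q-values up to 1e-05, −0.54 for regions in all 6 libraries, −0.31 for all merged regions and −0.59 with length-weighted folds. Regions with peaks in all 3 control and 0 NRF2 siRNA libraries numbered 0 with equal lists, with the block and equal lists, and at q-values up to 1e-05. At that q-value there were 19 regions, 8 of them in all libraries, with a median change of −0.30. The median without a coding start changed sign, to −0.63 at that q-value, −0.0142 for regions in all libraries, −0.18 for all merged regions, −0.0815 with windows of 5 kb and −0.0754 with 100 kb. The median at other coding starts became −0.0236 for all merged regions and −0.0593 with windows of 100 kb. Windows of 5 and 100 kb gave 22 and 68 regions, with a median of −0.32 at 5 kb. Leaving out 1 library at a time gave 0 to 2 lower calls, 2 to 4 one-sided regions (4 without replicate 2 of control siRNA), medians from −0.42 to −0.30 at member starts, and from −0.10 to 0.42 without a coding start, which was below 0 without replicate 3 of control siRNA (−0.06), replicate 1 of NRF2 siRNA (−0.10) or replicate 3 of NRF2 siRNA (−0.06). The causes of these shifts were not tested.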
